A study of Mus musculus with 37 samples.

Results

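Tdpoz1, Tdpoz2, Tdpoz3, Tdpoz4, Tdpoz5, Tcstv1 and Tcstv3 are genes of a pair of mouse families that are switched on in the 2-cell embryo. They were chosen by gene symbol, giving 7 of the 55401 genes in the expression table, 5 of them Tdpoz and 2 Tcstv. The data are 26 total RNA libraries of fully grown oocytes, MII eggs and embryos at the late 1-cell stage and at an early and a late point of the 2-cell stage. Controls were Bap1 flox/flox, and the knockout was Gdf9-iCre with Bap1 flox/flox, so that Bap1 was deleted in the oocyte by a recombinase driven by the promoter of the oocyte gene Gdf9. Embryos of both groups came from wild-type B6 sperm and were cultured in KSOM medium, so the maternal knockout embryos received an intact paternal Bap1 allele. Early 2-cell embryos had 3 control and 3 knockout libraries, and each of the other 4 stages had 2 control and 3 knockout libraries. The labels do not say that the libraries of a group came from separate animals, so the p-values measure the spread between these libraries, which may be technical. Another 11 poly(A) libraries come from embryonic day 6.5 epiblast, visceral endoderm and extraembryonic ectoderm of embryos sired by PWK males, with the same maternal genotypes.

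Tdpoz proteins join a TRAF-like (MATH) domain to a POZ (BTB) domain, an arrangement known from adaptors that bring substrates to Cullin ubiquitin ligases. Tcstv genes encode short proteins of the 2-cell embryo that also appear in the small fraction of embryonic stem cells resembling it, together with the Zscan4 genes. Both families are part of the burst of transcription with which the mouse embryo begins to use its own genome, a burst that is normally shut down again soon afterwards. BAP1 is the catalytic subunit of the deubiquitinase that removes the ubiquitin placed on histone H2A by Polycomb complexes. The comparison addresses how transcripts of the families behave when oocytes and early embryos lack maternal BAP1.

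The 5 Tdpoz genes lie within 309.8 kb of chromosome 3 (GRCm38, chr3:93651542-93961314) and the 2 Tcstv genes within 424.8 kb of chromosome 13 (chr13:119893388-120318178), all annotated as protein coding in GENCODE M21. Tdpoz1 (ENSMUSG00000094084.2, chr3:93669333-93676310, minus strand) has 2 exon blocks, and Tdpoz2 (ENSMUSG00000103362.1, chr3:93651542-93652686, minus strand) has 1. Tdpoz3 (ENSMUSG00000058005.3, chr3:93826020-93827117, plus strand), Tdpoz4 (ENSMUSG00000060256.1, chr3:93796398-93797510, plus strand) and Tdpoz5 (ENSMUSG00000094163.1, chr3:93960292-93961314, minus strand) are annotated as a single coding exon with no UTR. Tcstv1 (ENSMUSG00000096284.2) is at chr13:119893388-119894785 on the minus strand and Tcstv3 (ENSMUSG00000095821.2) at chr13:120316878-120318178 on the plus strand. Coding sequences of the Tdpoz genes were between 72.0% and 88.0% identical over the 10 pairs, with Tdpoz1 and Tdpoz3 the closest pair. Those of Tcstv1 and Tcstv3 were 93.6% identical.

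The start of the coding sequences shows how close the Tdpoz genes are and where reads could tell them apart. The first 120 coding bases of each gene are given 5′ to 3′ from the GRCm38 annotation, with capitals in the 4 lower lines marking bases that differ from Tdpoz1.
Tdpoz1: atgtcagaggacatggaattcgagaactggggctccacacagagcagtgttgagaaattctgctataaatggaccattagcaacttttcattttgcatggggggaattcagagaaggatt
Tdpoz2: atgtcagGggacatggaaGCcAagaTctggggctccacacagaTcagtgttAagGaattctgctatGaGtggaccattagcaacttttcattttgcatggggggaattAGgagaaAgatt
Tdpoz3: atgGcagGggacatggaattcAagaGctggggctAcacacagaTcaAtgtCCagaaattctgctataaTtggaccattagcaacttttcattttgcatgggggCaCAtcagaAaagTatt
Tdpoz4: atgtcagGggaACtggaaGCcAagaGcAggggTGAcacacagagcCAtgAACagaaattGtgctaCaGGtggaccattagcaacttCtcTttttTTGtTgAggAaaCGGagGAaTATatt
Tdpoz5: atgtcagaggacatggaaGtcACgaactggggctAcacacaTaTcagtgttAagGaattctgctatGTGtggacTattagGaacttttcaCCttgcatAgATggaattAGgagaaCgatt
Within this stretch Tdpoz2 differed from Tdpoz1 at 13 bases, Tdpoz3 at 15, Tdpoz5 at 21 and Tdpoz4 at 36.

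The Tcstv pair is shown over the 120 aligned columns in which its coding sequences differed most, starting at coding base 389 of each gene. Capitals mark the bases that differ or that face a gap in the other gene, 19 columns in all, of which 6 are gaps.
Tcstv1: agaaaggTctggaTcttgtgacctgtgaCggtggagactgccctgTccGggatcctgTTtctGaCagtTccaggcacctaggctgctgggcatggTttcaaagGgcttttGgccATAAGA
Tcstv3: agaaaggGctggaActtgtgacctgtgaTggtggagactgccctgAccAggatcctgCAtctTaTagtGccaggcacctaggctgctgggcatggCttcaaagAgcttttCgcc
Over the whole alignment the coding sequences differed at 33 of 513 columns.

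Because the families are so alike, part of each level cannot be assigned to 1 gene with certainty. The share of a gene's exonic words of 50 bases that also occur in another annotated gene was 15.0% for Tcstv1, 31.4% for Tcstv3, 44.4% for Tdpoz1, 48.3% for Tdpoz2, 66.2% for Tdpoz3 and 41.2% for Tdpoz4. For Tdpoz5 it was all of them, since its whole coding sequence is repeated without a difference in Tdpoz7. In the 11 libraries of 2-cell embryos the levels listed for Tdpoz7 and Tdpoz5 differed by only 0.198% to 11.5%, so the value of Tdpoz5 stands for both copies. For Tdpoz3, the words of the pseudogene Gm4982 account for all of the sharing. How reads with several matches were counted is not given in the sources used here.

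RefSeq promoter windows (GRCm38.p6, 250 bases before to 50 after an annotated start) were matched for 3 of the 7 genes, Tdpoz1, Tdpoz4 and Tdpoz5. Those of Tdpoz4 and Tdpoz5 lie just before the start codon, because their models hold no upstream exon. The 250 bases before the start of Tdpoz1 (chr3:93676284-93676533, minus strand) are shown beside those of its relative Tdpoz8 (chr3:93068573-93068822, plus strand), since Tdpoz8 was called higher in late 2-cell knockout embryos and Tdpoz1 was not. Tdpoz8 has a second annotated start whose window (chr3:93073271-93073570, plus strand) is not printed: it held neither motif, aligned with the window of Tdpoz1 over only 10 columns and was 94.7% identical to that of Tdpoz4. Which start was used was not measured. Capitals mark 2 motifs that were searched on both strands and do not overlap. The first, TATATAA, is of the kind found at core promoters. The second, TAATCC, is the core recognised by homeodomain proteins of the OTX type.
Tdpoz1: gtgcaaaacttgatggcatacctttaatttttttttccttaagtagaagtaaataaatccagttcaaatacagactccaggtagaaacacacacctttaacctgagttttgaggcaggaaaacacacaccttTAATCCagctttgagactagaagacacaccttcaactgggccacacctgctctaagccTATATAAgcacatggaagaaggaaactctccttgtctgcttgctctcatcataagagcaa
Tdpoz8: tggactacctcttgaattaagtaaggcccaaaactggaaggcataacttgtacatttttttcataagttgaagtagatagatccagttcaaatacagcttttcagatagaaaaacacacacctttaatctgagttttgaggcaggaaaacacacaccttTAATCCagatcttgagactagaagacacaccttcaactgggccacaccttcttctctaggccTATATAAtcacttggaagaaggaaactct
Each window held both motifs once, with TATATAA at offset -60 from the annotated start of Tdpoz1 and -29 from that of Tdpoz8. The window of the relative Tdpoz9 was 99.6% identical to that of Tdpoz1 over 273 columns but had TATATAA at -33. These offsets thus depend on where a start was annotated. Tdpoz9 was not called in late 2-cell embryos (-0.52, limma adjusted p = 0.0665). A link between the windows and the knockout effects was not tested. Over a local alignment of 267 columns the full windows of Tdpoz1 and Tdpoz8 were 85.8% identical. Of 32851 RefSeq promoter windows of the same length, 3.24% held TATATAA and 7.06% held TAATCC. The windows of Tdpoz4 and Tdpoz5 held neither.

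Some facts of the libraries touch all results. Bap1 was at 16.3 to 29.9 FPKM (fragments per kilobase of transcript, scaled to the library's mapped fragments) in control libraries of the 5 stages and at 3.76 to 11.7 FPKM in knockout libraries, with the smallest difference in late 2-cell embryos. There the log2 difference was -1.04 (SE 0.143, limma adjusted p = 0.00118). Early 2-cell embryos varied most: the median SD within a group was 0.26 on the log2(FPKM + 1) scale, against 0.12 to 0.20 in the other stages. Early 2-cell knockout replicate 2 stood apart, with a summed level of 461 FPKM over 38 other 2-cell genes against 822 and 840 FPKM in the other knockout libraries and 813 to 1156 FPKM in controls. The gene with the highest level in every library was Gm23935. In late 2-cell embryos it took 20.2% and 23.1% of the summed FPKM in controls and 15.3% to 17.3% in knockout libraries. The summed FPKM of all genes there was 404518 and 430784 in controls and 371188 to 381737 in knockout libraries. The part of this difference in the results was not tested. A list of 9 oocyte genes was above 1 FPKM throughout. A list of 9 cumulus and granulosa genes summed to 4.43 to 11.4 FPKM in control and 1.52 to 3.26 FPKM in knockout libraries; only 1 of them reached 1 FPKM in all libraries of a group, Cyp19a1 up to early 2-cell embryos and Amhr2 in late 2-cell embryos, while Foxl2, Fshr and Inha were below 1 FPKM in all 26 libraries. The part of such cells in the results was not tested.

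Before the 2-cell stage the families differed. The Tdpoz genes were close to 0 in all 15 libraries of oocytes, eggs and 1-cell embryos: 42 of their 75 values were listed at 0, and the highest was 0.450 FPKM, for Tdpoz5 in late 1-cell control replicate 2. None reached 1 FPKM, so no Tdpoz gene was tested at these stages. Tcstv1 was present throughout, at 10.8 to 25.1 FPKM, and Tcstv3 was lower, at 2.01 to 6.68 FPKM.

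In fully grown oocytes Tcstv1 was lower without Bap1. Its levels were 21.9 and 25.1 FPKM in the control libraries and 13.5, 14.4 and 13.9 FPKM in the knockout libraries, so that the groups did not overlap. The control mean was 23.5 ± 2.26 FPKM (SD, n = 2), that of the knockout oocytes 14.0 ± 0.447 FPKM (SD, n = 3), which gave a log2 difference of -0.71 (SE 0.0890, limma adjusted p = 0.00774). Tcstv3 stood at 4.57 and 6.68 FPKM in controls and 3.76, 3.59 and 4.05 FPKM in knockout oocytes, a log2 difference of -0.45 that did not pass the test (limma adjusted p = 0.155). Thus 1 of the 2 Tcstv genes was called lower in oocytes, where 7.0% of the 11560 genes tested were called lower and 1.34% higher. Both had all knockout libraries below the controls, as did 25.9% of all genes. With 1 control library left out the adjusted p of Tcstv1 was 0.0693 without control replicate 1 and 0.0999 without control replicate 2, the difference remaining at -0.80 and -0.61.

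MII eggs and late 1-cell embryos showed no Tcstv gene past the threshold in either direction. In MII eggs 7.84% of 11357 genes were called lower and 4.17% higher, and in late 1-cell embryos 8.71% of 11096 genes were called lower and 6.22% higher. At an unadjusted p under 0.05 the counts of the 2 Tcstv genes were 1 in eggs and 0 in 1-cell embryos, and the single fit of all libraries called 0 and 0. Tcstv1 was at 15.6 and 16.6 FPKM in control eggs and 16.1, 15.9 and 10.8 FPKM in knockout eggs, an overlap that gave a log2 difference of -0.18 (limma adjusted p = 0.512). Tcstv3 was at 3.47 and 5.11 FPKM against 2.71, 3.25 and 2.07 FPKM, all knockout values lower (22.9% of all genes had this) but with a log2 difference of -0.52 (limma adjusted p = 0.133). At the late 1-cell stage the log2 differences were -0.18 for Tcstv1 and -0.20 for Tcstv3. Between MII eggs and late 1-cell embryos neither gene changed past the threshold in control (27.7% of 11817 genes called) or in knockout (17.1% called), and no difference of the knockout effect between these stages was called (0.0508% of genes called); at an unadjusted p under 0.05 the count was 0 in each of these 3 comparisons.

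**Figure D1:**
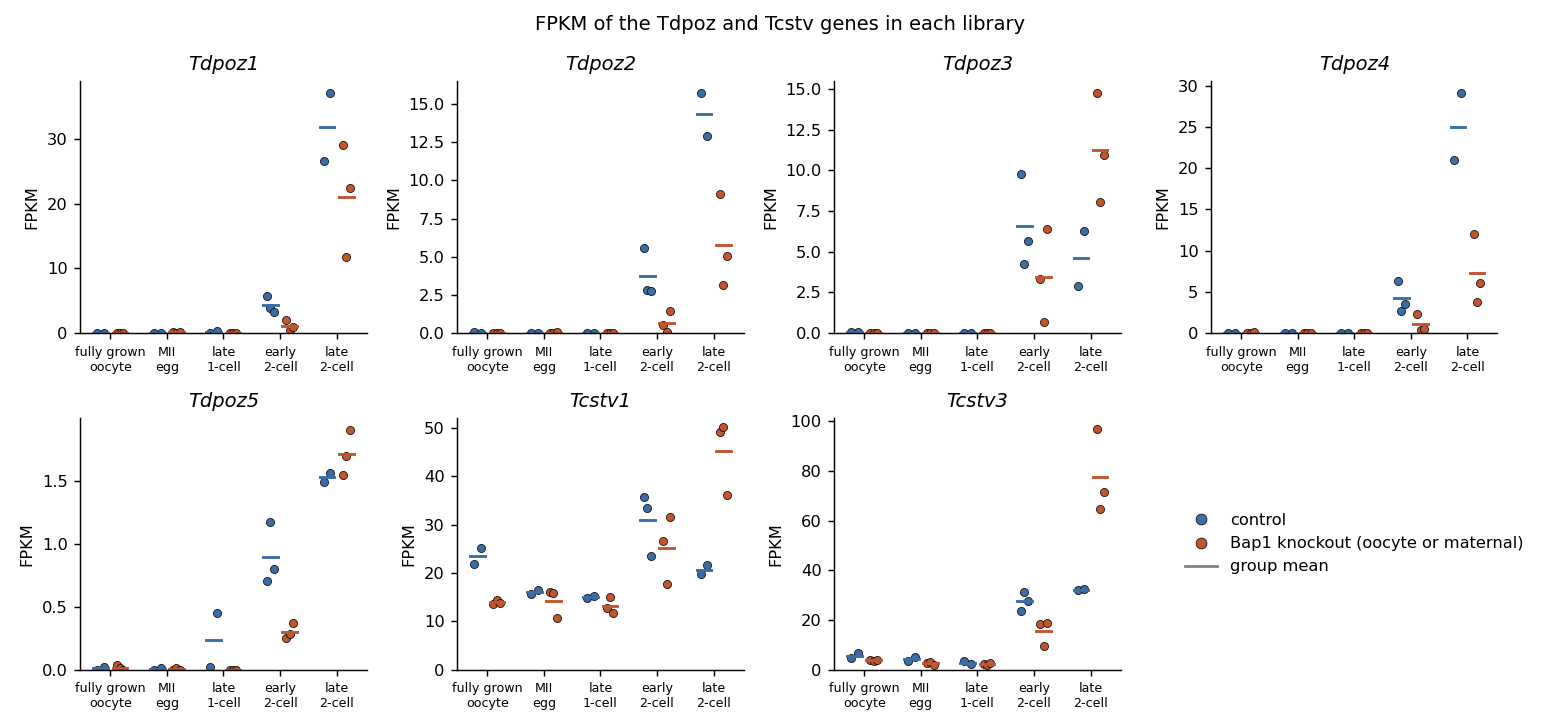
FPKM (vertical axes, linear, from 0) of each gene in each of the 26 libraries by stage, control in blue and Bap1 knockout in red-brown, with bars at group means. The Tdpoz genes stayed at or below 0.450 FPKM until the early 2-cell stage, whereas Tcstv1 was at 10.8 FPKM or more in every oocyte, egg and 1-cell library.

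From the late 1-cell to the early 2-cell stage the Tdpoz genes came on from near 0 in both genotypes, and the Tcstv genes, already present, increased. In controls all 6 genes that were tested rose, where 17.6% of 12770 genes were called higher; the log2 changes ran from 0.97 for Tcstv1 to 2.92 for Tcstv3, with Tdpoz1 at 2.18, Tdpoz2 at 2.19, Tdpoz4 at 2.31 and Tdpoz3 at 2.86. In knockout embryos 5 of the 6 rose, where 16.8% of genes were called higher. Tdpoz1, Tdpoz2, Tdpoz3 and Tdpoz4 were below 1 FPKM in all late 1-cell libraries and entered the test only through the early 2-cell libraries, so their part of both counts was fixed by the filter and nothing is read from it against those shares. Tdpoz2, at 0.67 (limma adjusted p = 0.0848), missed the threshold, although it was called without early 2-cell knockout replicate 2 (0.96, adjusted p = 0.0159). The rise of Tdpoz4 in knockout embryos, 0.92 with an adjusted p of 0.0378, was not called without early 2-cell knockout replicate 1 (0.52, adjusted p = 0.144), and its adjusted p was between 0.0517 and 0.0850 without each of the 5 late 1-cell libraries. Tdpoz5 was below 1 FPKM in all but 1 early 2-cell library and was not tested. The difference between genotypes in this change was not past the threshold for any of the 6 genes (limma adjusted p from 0.150 for Tdpoz2 to 0.913 for Tcstv1, with 0.337% of genes called). Of the 6, 3 had an unadjusted p under 0.05, and the single fit of all libraries called Tdpoz2 (adjusted p = 0.0353). Tdpoz2, Tdpoz3 and Tdpoz4 were listed at 0 in all 5 late 1-cell libraries. Their differences (-1.52, -0.95 and -1.39) therefore only repeat the early 2-cell knockout effect and are no separate test of the change.

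At the early 2-cell stage the listed levels of Tdpoz1 and Tdpoz2 were lower in the maternal knockout libraries. Tdpoz1 was at 5.75, 3.94 and 3.26 FPKM in controls and at 2.01, 0.508 and 0.855 FPKM in knockout embryos. Tdpoz2 was at 5.57, 2.82 and 2.78 FPKM in controls and at 0.541, 0.0613 and 1.45 FPKM in knockout embryos. For both genes each knockout library lay below each control library. The log2 difference was -1.36 (SE 0.309, limma adjusted p = 0.0293) for Tdpoz1 and -1.52 (SE 0.358, limma adjusted p = 0.0323) for Tdpoz2. Both genes passed the filter through the controls, where they were higher, so these p-values are given as a description only.

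The other members had lower means in knockout embryos at this stage but did not pass the test or were not tested. Tdpoz4 was at 6.37, 2.67 and 3.55 FPKM in controls and 2.31, 0.334 and 0.538 FPKM in knockout embryos, again with no overlap, and had a log2 difference of -1.39 (limma adjusted p = 0.0560). Tdpoz3 overlapped between the groups, with 9.80, 4.27 and 5.69 FPKM in controls and 3.35, 0.658 and 6.39 FPKM in knockout embryos (-0.95, limma adjusted p = 0.254). Tcstv3 was at 23.8, 31.3 and 27.6 FPKM against 18.4, 9.62 and 18.8 FPKM, without overlap, a log2 difference of -0.83 (limma adjusted p = 0.0616). Tcstv1 overlapped, at 35.7, 33.5 and 23.6 FPKM against 26.6, 17.7 and 31.6 FPKM (-0.30, limma adjusted p = 0.436). Tdpoz5, the copy that cannot be told from Tdpoz7, was at 0.706, 1.17 and 0.796 FPKM in controls and 0.248, 0.286 and 0.370 FPKM in knockout embryos.

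In all, 2 of the 6 genes tested at this stage were called lower and 0 higher, where 5.87% of 11780 genes were called lower and 4.25% higher; without the adjustment 4 of the 6 had a p under 0.05. In 4 of the 6 every knockout library was below every control library, as in 16.3% of all genes tested. The median log2 difference of the 6 was -1.15, beside 0.03 for all genes. Tdpoz1, Tdpoz2 and Tdpoz4 had only 1 knockout library at 1 FPKM or more and so entered the test through the controls, where they were higher. The 2 calls, these counts and the median are therefore a description only. With no filter on low values both calls were lost (adjusted p = 0.126 for Tdpoz1 and 0.147 for Tdpoz2). The calls rest on few libraries. The adjusted p of Tdpoz1 was 0.108, 0.0747 and 0.0511 without control replicates 1, 2 and 3, and 0.0792 and 0.0657 without knockout replicates 2 and 3. That of Tdpoz2 was 0.111, 0.0669 and 0.0595 without the controls in the same order, and 0.0727 and 0.0838 without knockout replicates 1 and 2, while Tdpoz4 was called without knockout replicate 1 (-1.79, adjusted p = 0.0258). Without knockout replicate 2, the library that stood apart, 0 of the 6 genes were called and the log2 differences were -1.14 for Tdpoz1 and -1.23 for Tdpoz2. The libraries are bulk, so fewer expressing cells and less RNA in each cell cannot be told apart.

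Late 2-cell embryos showed a split between the families and within the Tdpoz family. Both Tcstv genes and Tdpoz3 were higher in maternal knockout embryos, whereas Tdpoz2 and Tdpoz4 were lower. These were 3 of 7 genes called higher, where 19.0% of 12718 genes were, and 2 of 7 called lower, where 19.5% were. Knockout libraries were all above controls for the same 3 genes (31.6% of all genes) and all below for the same 2 (30.6%). With shares this high, the counts among 7 genes are not read as a trait of the families.

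Tcstv1 was at 19.7 and 21.7 FPKM in late 2-cell controls and at 49.2, 50.2 and 36.2 FPKM in knockout embryos. Its mean was thus 20.7 ± 1.39 FPKM (SD, n = 2) against 45.2 ± 7.82 FPKM (SD, n = 3), a log2 difference of 1.08 (SE 0.156, limma adjusted p = 0.00143). Tcstv3, its near-identical partner, was at 32.0 and 32.6 FPKM in controls and at 96.7, 64.6 and 71.5 FPKM in knockout embryos, a difference of 1.22 (SE 0.163, limma adjusted p = 0.00105). For both genes the groups were far apart compared with the spread between libraries. Neither call was lost in any of the 13 other settings run for each gene, leaving out each library included, with adjusted p between 0.000244 and 0.0203 over both genes.

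Tdpoz3 was at 2.90 and 6.30 FPKM in late 2-cell controls and at 14.8, 8.05 and 10.96 FPKM in knockout embryos, a log2 difference of 1.16 (SE 0.310, limma adjusted p = 0.0195). Tdpoz4 went the other way, with 20.96 and 29.1 FPKM in controls and 12.1, 3.78 and 6.13 FPKM in knockout embryos (-1.75, SE 0.370, limma adjusted p = 0.00761). Tdpoz2 was at 15.7 and 12.9 FPKM in controls and 9.09, 3.14 and 5.04 FPKM in knockout embryos (-1.27, SE 0.332, limma adjusted p = 0.0178). In none of these genes did the groups overlap. Tdpoz1, the most abundant of the 5 Tdpoz genes in late 2-cell embryos, overlapped between the groups, with 26.5 and 37.1 FPKM in controls and 29.0, 11.8 and 22.4 FPKM in knockout embryos (-0.64, limma adjusted p = 0.152). Tdpoz5 was at 1.49 and 1.56 FPKM in controls and 1.54, 1.69 and 1.90 FPKM in knockout embryos (0.10, limma adjusted p = 0.736).

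Single libraries decided some of these calls. The difference of Tdpoz3 was 0.71 with an adjusted p of 0.136 without control replicate 1, and 1.16 with an adjusted p of 0.0559 without knockout replicate 3. For Tdpoz2 the adjusted p was 0.108 without control replicate 1, 0.0600 without control replicate 2 and 0.0536 without knockout replicate 3. For Tdpoz4 it was 0.0617 without control replicate 2. Tdpoz1 was called lower without knockout replicate 1 (-0.90, adjusted p = 0.0394). With the replicate number as a block Tdpoz3 had an adjusted p of 0.0596. With no filter on low values none of the 3 Tdpoz calls passed, at adjusted p of 0.115 for Tdpoz2, 0.118 for Tdpoz3 and 0.0736 for Tdpoz4.

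**Figure D2:**
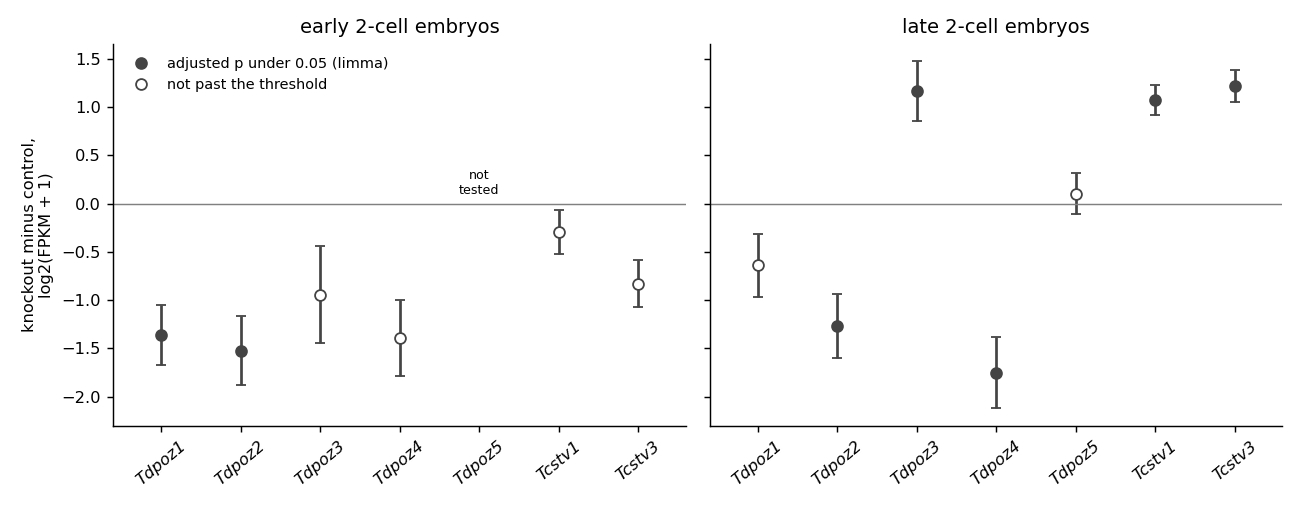
Knockout minus control difference of log2(FPKM + 1) at the early and late 2-cell stage, points with SE from limma, filled where the adjusted p was under 0.05. All 6 tested genes lay below 0 at the early stage, whereas at the late stage Tcstv1, Tcstv3 and Tdpoz3 lay above 1 and Tdpoz2 and Tdpoz4 below -1.

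The change of the knockout effect between the 2-cell stages was tested directly. For Tcstv3 the effect in late embryos exceeded that in early embryos by 2.05 (SE 0.338, limma adjusted p = 0.00235), and for Tcstv1 by 1.37 (SE 0.320, limma adjusted p = 0.0128). These 2 of 7 genes were called higher, where 8.81% of 14051 genes were, and none was called lower (7.89% of genes). For Tdpoz3 the effect differed by 2.11, with a wider error (SE 0.708, limma adjusted p = 0.0630). For Tdpoz1, Tdpoz2, Tdpoz4 and Tdpoz5 the differences were 0.72, 0.25, -0.36 and 0.63, with adjusted p between 0.128 and 0.807. The call of Tcstv1 was lost without late 2-cell control replicate 1 (1.31, adjusted p = 0.0573), and Tdpoz3 was called without early 2-cell knockout replicate 3 (2.59, adjusted p = 0.0172).

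The same data can be read as a course over time within each genotype. In controls Tdpoz1, Tdpoz2 and Tdpoz4 rose from the early to the late 2-cell stage, by 2.63, 1.74 and 2.37 on the log2 scale (limma adjusted p at most 0.00321), where 30.7% of 14051 genes rose. In controls Tcstv1 had a difference of -0.54 (adjusted p = 0.0750), Tcstv3 of 0.23 (adjusted p = 0.467) and Tdpoz3 of -0.44 (adjusted p = 0.503). With values scaled to TPM, Tcstv1 was called lower in controls (-0.73, limma adjusted p = 0.0233), as were 3934 of 14051 genes in that fit. It was also called lower without early 2-cell knockout replicate 2 (adjusted p = 0.0328) and without early 2-cell control replicate 3 (-0.71, adjusted p = 0.0261). In the unscaled fit with all libraries 23.9% of genes were called lower. In knockout embryos all 7 genes rose, where 29.3% of genes did (Tdpoz5 entered the test through the late embryos), with log2 changes from 0.84 for Tcstv1 to 3.35 for Tdpoz1. The stage changes share groups with the knockout effects above and are given beside them, not as separate support.

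Knockout late 2-cell embryos were also set against control early 2-cell embryos. Tcstv3, Tdpoz1 and Tdpoz5 were higher, by 1.45, 1.99 and 0.53 on the log2 scale (limma adjusted p = 0.000282, 0.000417 and 0.0281), where 29.6% of genes were. Tdpoz5 was at 1 FPKM or more in only 1 early 2-cell library and entered the test through the late embryos. Its part of the count was thus shaped by the filter, and nothing is read from it against that share. The call of Tdpoz5 was lost without control early 2-cell replicate 1 (0.45, adjusted p = 0.0896) or 3 (0.49, adjusted p = 0.0697), without knockout late 2-cell replicate 2 (0.53, adjusted p = 0.0577) or 3 (0.48, adjusted p = 0.0845), with values scaled to TPM (adjusted p = 0.0532), with a pseudocount of 0.1 (adjusted p = 0.0613) and with median centring (0.31, adjusted p = 0.173). Tcstv1 was just short of the threshold (0.54, adjusted p = 0.0540). It was called without late 2-cell knockout replicate 3 (0.69, adjusted p = 0.0330), early 2-cell knockout replicate 2 or 3 (adjusted p = 0.0222 and 0.0387) and early 2-cell control replicate 1 (0.65, adjusted p = 0.0474). Tdpoz2, Tdpoz3 and Tdpoz4 differed by 0.47, 0.72 and 0.62 (adjusted p between 0.229 and 0.312).

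Summed over the family, Tdpoz transcripts were below 1 FPKM in every library before the 2-cell stage. At the early 2-cell stage the sum was 28.2, 14.9 and 16.1 FPKM in controls and 8.46, 1.85 and 9.60 FPKM in knockout embryos. At the late 2-cell stage it was 67.6 and 87.0 FPKM in controls and 66.5, 28.5 and 46.4 FPKM in knockout embryos. The knockout sums were thus all lower at both stages, by 3.55-fold at the early stage (log2 -1.83, pooled SD 1.00) and 1.73-fold at the late stage (log2 -0.79, pooled SD 0.52), with late knockout replicate 1 only just below the lower control. The late separation was lost on other scales: in TPM the sums were 167 and 202 in controls and 175, 74.6 and 125 in knockout embryos, and weighted by exonic length knockout replicate 1 was at 109.8 against 108.4 in control replicate 1, in FPKM times kilobases. Without early knockout replicate 2 the early log2 difference was -1.07, and without late knockout replicate 2 the late one was -0.47. When 9 related genes were added and values weighted by exonic length, the late 2-cell groups overlapped too, at 300 and 323 in controls and 348, 186 and 250 in knockout embryos, in FPKM times kilobases.

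The Tcstv sum was 26.5 and 31.8 FPKM in control oocytes and 17.3, 18.0 and 18.0 FPKM in knockout oocytes (log2 -0.71, pooled SD 0.11). In MII eggs the sums overlapped, and in late 1-cell embryos the knockout sums were all slightly lower, at 18.2 and 17.5 FPKM against 15.1, 17.1 and 14.2 FPKM. In TPM the late 1-cell groups overlapped, at 56.4 and 53.8 in controls and 47.5, 54.9 and 45.4 in knockout embryos. At the early 2-cell stage the sum was 59.5, 64.8 and 51.2 FPKM in controls and 45.0, 27.3 and 50.4 FPKM in knockout embryos, all lower but with the closest libraries nearly equal (log2 -0.56, pooled SD 0.35, and -0.29 without knockout replicate 2). These groups overlapped in TPM, where knockout replicate 3 was at 145 and control replicate 3 at 132, and when weighted by exonic length, where they were at 58.8 and 54.5 in FPKM times kilobases. With 2 related genes added and the same weighting they did not overlap, at 141, 139 and 110 in controls and 90.8, 52.5 and 106 in knockout embryos. At the late 2-cell stage the order was reversed: 51.7 and 54.2 FPKM in controls against 146, 115 and 108 FPKM in knockout embryos, 2.30-fold higher (log2 1.20, pooled SD 0.19). No test is given for the sums, since their members were chosen together.

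**Figure D3:**
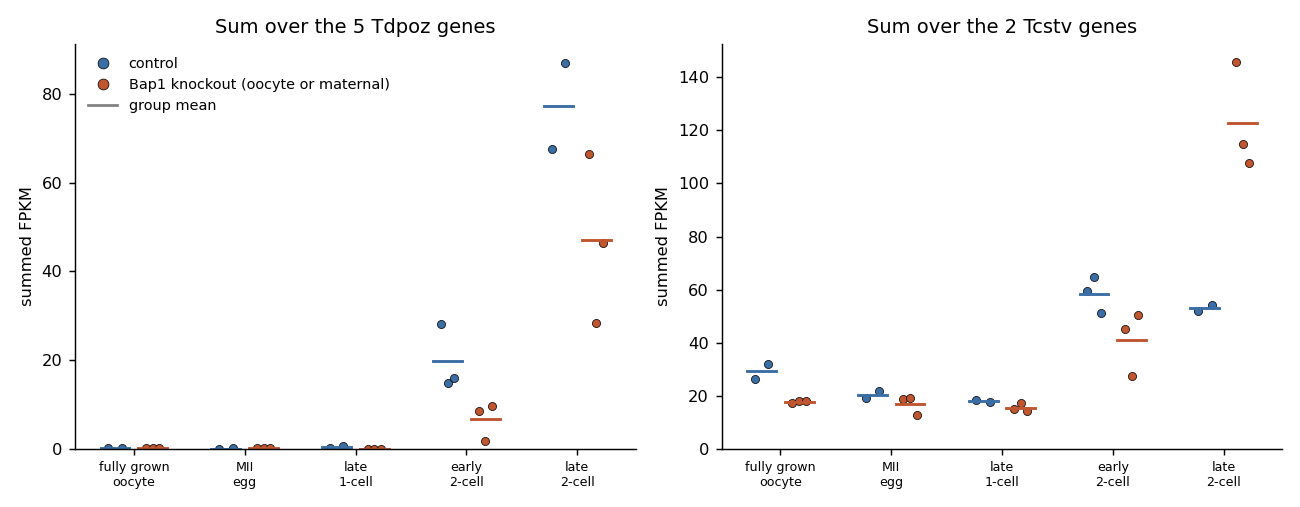
Summed FPKM (vertical axes, linear, from 0) of the 5 Tdpoz genes (left) and the 2 Tcstv genes (right) in each library by stage, with bars at group means. In late 2-cell embryos the knockout Tcstv sums (108 to 146 FPKM) lay above the control Tcstv sums (51.7 and 54.2 FPKM). The knockout Tdpoz sums (28.5 to 66.5 FPKM) lay below the control Tdpoz sums (67.6 and 87.0 FPKM), a separation that was lost in TPM and with weighting by exonic length.

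Shares within a library, which do not depend on its scaling, show how the make-up of the Tdpoz family shifted. In early 2-cell controls Tdpoz3 was the leading gene, at 34.7%, 28.7% and 35.4% of the summed Tdpoz FPKM, and in knockout embryos of that stage it made up 39.6%, 35.6% and 66.5%. In late 2-cell controls it was down to 4.29% and 7.24%, and Tdpoz1 (39.2% and 42.6%) and Tdpoz4 (31.0% and 33.5%) led. In late 2-cell knockout embryos Tdpoz3 made up 22.2%, 28.3% and 23.6%, and Tdpoz4 18.2%, 13.3% and 13.2%, without overlap with controls for either gene. The ratio of Tdpoz3 to Tdpoz4 was accordingly 0.138 and 0.216 in late 2-cell controls and 1.22, 2.13 and 1.79 in knockout embryos, beside 1.54, 1.602 and 1.603 in early 2-cell controls and 1.45, 1.97 and 11.9 in early 2-cell knockout embryos. The share of Tdpoz1 overlapped between the groups in late 2-cell embryos, at 43.6%, 41.5% and 48.2% in the knockout.

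**Figure D4:**
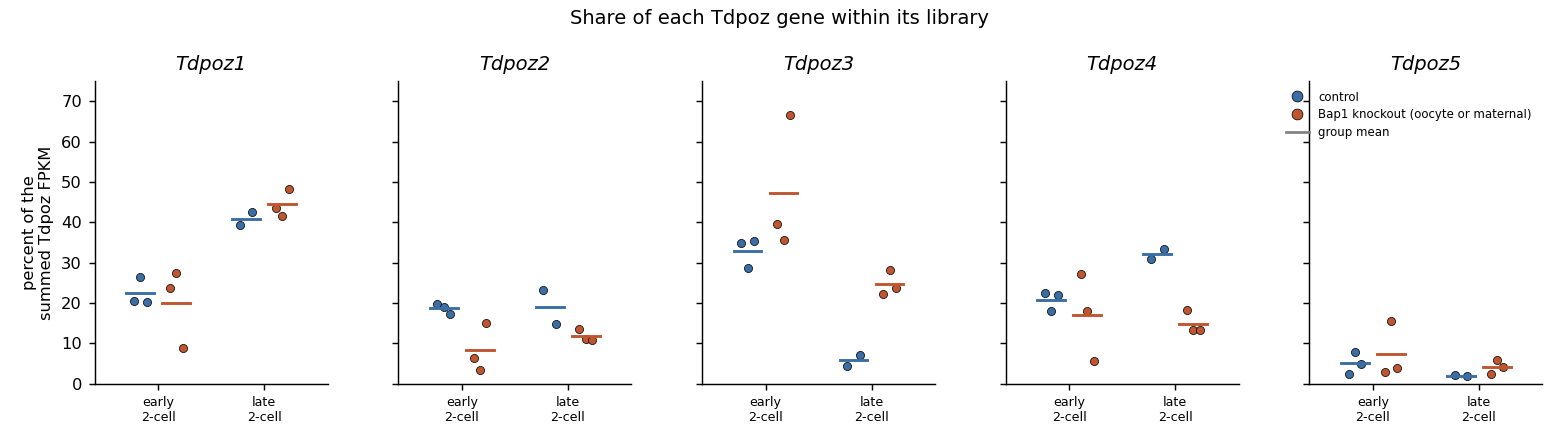
Percent of the summed Tdpoz FPKM taken by each Tdpoz gene in each 2-cell library, with bars at group means. In late 2-cell embryos Tdpoz3 took 4.29% and 7.24% in controls and 22.2% to 28.3% in the knockout, whereas Tdpoz4 took 31.0% and 33.5% in controls and 13.2% to 18.2% in the knockout.

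Within the Tcstv pair the balance moved with stage. The ratio of Tcstv3 to Tcstv1 was 0.133 to 0.309 in the 15 libraries of oocytes, eggs and 1-cell embryos. It was 0.668, 0.936 and 1.17 in early 2-cell controls and 0.693, 0.544 and 0.595 in knockout embryos of that stage, which overlapped. In late 2-cell embryos Tcstv3 exceeded Tcstv1 in every library, with ratios of 1.62 and 1.502 in controls and 1.97, 1.29 and 1.98 in the knockout.

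How the members varied together was described over the 11 libraries of 2-cell embryos, which share stages and genotypes, so that the correlations carry no test. Tdpoz1, Tdpoz2 and Tdpoz4 followed each other closely on the log2(FPKM + 1) scale, with Pearson's r between 0.907 and 0.941. Tdpoz3 was less like them (r = 0.551 with Tdpoz1, 0.531 with Tdpoz2 and 0.416 with Tdpoz4) than like the Tcstv genes (r = 0.795 with Tcstv1 and 0.798 with Tcstv3). Likeness to Tcstv3 was not limited to Tdpoz3, since Tcstv3 also had r = 0.785 with Tdpoz1 and 0.862 with Tdpoz5. Tcstv1 and Tcstv3 had r = 0.730.

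Both clusters hold further genes and pseudogenes, and genes were described as relatives if they lay in a cluster or within 100 kb of it, carried a Tdpoz or Tcstv symbol, or shared at least 10% of a member's 50-base words. On chromosome 3, 15 relatives were expressed. At the early 2-cell stage 6 of the 12 tested were called lower and 0 higher (median log2 difference -1.40), where 5.87% of all genes were called lower and 4.25% higher. Among the 6, Gm5541 and Gm5773 had only 1 knockout library at 1 FPKM or more and so entered the test through the controls, where they were higher. These early counts and their median are a description only. At the late 2-cell stage 3 of 14 were called higher and 1 lower (median -0.17), which is near the 19.0% of all genes called higher and below the 19.5% called lower. The largest early fall was that of Tdpoz8, from 19.3, 17.8 and 14.9 FPKM in controls to 4.51, 0.384 and 5.02 FPKM in the knockout (-2.35, SE 0.490, limma adjusted p = 0.0219). In late 2-cell embryos Tdpoz8 was at 19.5 and 16.3 FPKM in controls and 39.7, 24.9 and 28.5 FPKM in the knockout, which was higher (0.74, limma adjusted p = 0.0177), whereas Tdpoz1 had -0.64. Gm5773, which shares 38.7% of the words of Tdpoz2, was lower at both stages, as Tdpoz2 was (-1.97, limma adjusted p = 0.0115, and -1.24, limma adjusted p = 0.0328). Gm9141, which shares 37.8% of them, was not tested early and was not called late (-0.47, limma adjusted p = 0.164). With this sharing, reads may have been counted for any of these genes.

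On chromosome 13, 11 relatives were expressed and tested at both stages. At the early 2-cell stage 4 were called lower and 0 higher (median log2 difference -0.90; 5.87% and 4.25% of all genes). At the late 2-cell stage 6 were called higher and 0 lower (median log2 difference 1.03; 19.0% and 19.5% of all genes), among them Gm20767 (2.01, limma adjusted p = 0.000441), AF067061 (1.69, limma adjusted p = 0.000289) and Gm21818 (1.29, limma adjusted p = 0.00140), which shares 19.0% of the words of Tcstv3. Reads of Gm21818 and Tcstv3 may therefore have been counted for either gene.

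**Figure D5:**
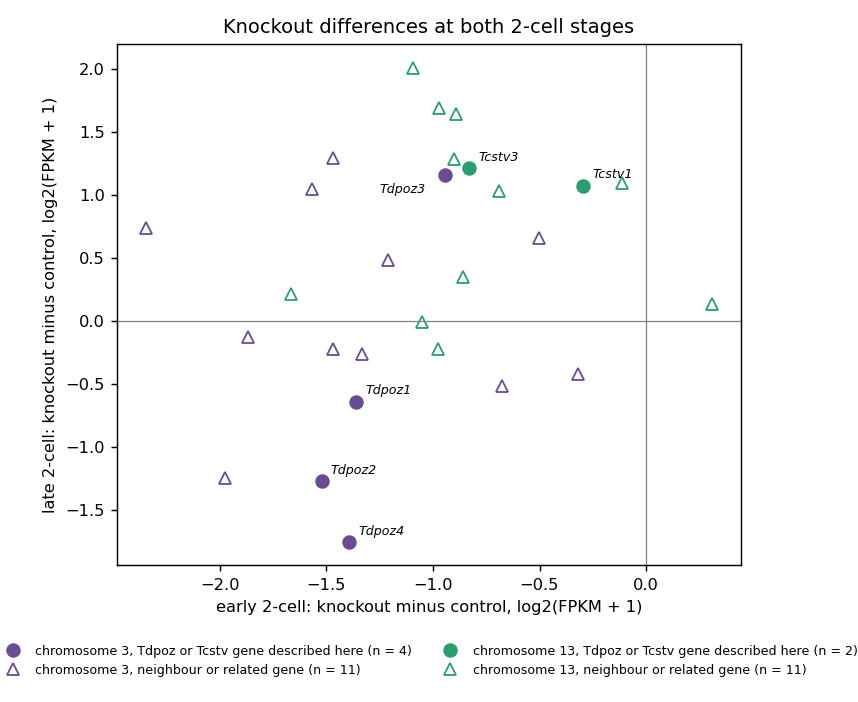
Knockout minus control difference of log2(FPKM + 1) at the early (horizontal axis) and late 2-cell stage (vertical axis) for the 6 Tdpoz and Tcstv genes tested at both stages (filled circles) and 22 neighbouring or related genes (open triangles: 11 on chromosome 3 in purple, 11 on chromosome 13 in green). Tdpoz1, Tdpoz2 and Tdpoz4 lay at the lower left, below 0 at both stages, and Tcstv1, Tcstv3 and Tdpoz3 at the upper left, below 0 early and above 1 late.

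A list of other genes known from the 2-cell stage was measured for comparison. Of 39 names 38 were in the table, and all 38 were tested at both 2-cell stages. At the early stage 2 were called higher, AW822073 (2.15) and Duxf3 (2.05), and 6 lower, with Obox3 (-2.33) and Obox6 (-1.98), both homeobox genes, the lowest of the 6; over all genes 4.25% were called higher and 5.87% lower. At the late stage 30 were called higher, led by Eif4a3l1 (3.41) and Gm2022 (3.08), and 2 lower, Obox6 (-2.43) and Ubtfl1 (-0.57), beside 19.0% and 19.5% of all genes. The median log2 difference over the list was -0.81 early and 1.603 late, beside -1.15 and 0.10 over the Tdpoz and Tcstv genes tested. Obox6 had only 1 early knockout library at 1 FPKM or more and entered that test through the controls. AW822073 and Duxf3 were below 1 FPKM in late controls and entered the late test through the knockout. The counts and medians of the list are therefore a description only. In late 2-cell embryos the 9 oocyte genes summed to 515 to 541 FPKM in controls and 831 to 958 FPKM in the knockout, and the part of this difference in the late 2-cell results was not tested.

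The genes whose levels followed each family most closely over the 26 libraries were sought among 8092 genes with a gene name rather than a model number and a group mean reaching 5 FPKM. For the mean of the Tdpoz genes these were Slc16a6, which encodes a member of the monocarboxylate transporter family (Pearson's r = 0.993), Obox3-ps3 (0.993), Ficd, an enzyme that modifies the chaperone BiP (0.992), Zfp622 (0.990) and Obox3-ps2 (0.990). For the mean of the Tcstv genes these were the heat shock protein gene Hspa2 (0.974), Zfp281 (0.970), Tmem92 (0.967), Ddit4l (0.967) and Fundc1 (0.965). All libraries share the same stages, and no test is given for these correlations. The libraries used for the ranking include those of the knockout, so no knockout effect of these genes is read from it.

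At embryonic day 6.5 both families were at or near 0 in both genotypes. Of the 77 values of the 7 genes in the 11 poly(A) libraries, 5 were above 0, and the highest was 0.232 FPKM for Tcstv1 in knockout epiblast replicate 1. These libraries have another RNA selection and another table, and no comparison with the early stages was tested.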

How the data were processed

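The deposited values are FPKM per gene and library, 1 column for each library, made by the authors with Trim Galore 0.6.6, STAR 2.7.9 and StringTie 2.1.7 on mm10, per the submitters' processing notes. The annotation, the use of strand and the handling of reads with several matches are not given in the sources used here. Per the labels the early libraries used the SMART-Seq Stranded kit and total RNA. The deposited column of control epiblast replicate 1 holds 1 value below 0 and was therefore recorded as having an other unit; that value was set to 0. Positions come from GENCODE M21 (GRCm38), where 54349 of the 55401 gene identifiers were found with an equal version. FPKM keeps no read number, so the depth is unknown and no counting interval is given.

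The scale was log2(FPKM + 1), over genes that reached 1 FPKM in 2 or more libraries of the fit; it is a scale that understates changes of low genes. With limma 3.58.1 (R 4.3.3), linear models moderated along an intensity trend were fitted to each stage alone for the knockout effect and to pairs of stages for stage changes and differences of effects, with Benjamini-Hochberg adjustment over all genes and a threshold of 0.05. On simulated data the fit of early 2-cell embryos recovered 57 of 100 genes changed by 1 log2 unit and 93 of 100 changed by 2, with 6 false calls among 11571 genes; a spread shared over all stages gave 414. For late 2-cell embryos it recovered 59 and 91 of 100, with 5 false calls among 12461 genes. The changed genes all had a higher mean level than any Tdpoz gene had in early 2-cell embryos. Noise was drawn for each gene separately, so a whole library that stands apart was not simulated. Recovery and false calls for the early Tdpoz results are therefore not known from it. Sums of FPKM have no test. The members and lists were chosen with earlier results of these data known. Named were the members, their relatives, the 2 largest changes in each direction of a list of other 2-cell genes, and the 5 genes most correlated with each family. Relatives were to be found by protein identity, but no protein sequences were used here and shared 50-base words and symbols took their place. Alternatives were a pseudocount of 0.1, no filter, a filter on a mean of 5 FPKM, scaling to TPM, median centring, 1 fit of all 26 libraries, eBayes without a trend, a replicate block and each library left out. Python 3.11.15 with pandas 2.3.3, Biopython 1.88 and matplotlib 3.10.9 was used.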

Additional observations from a re-analysis of the deposited data

Results flagged for a closer look

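For 2 genes the knockout effect differed between early and late 2-cell embryos by a test of the difference itself. Tcstv1 went from -0.30 to 1.08 on the log2 scale, a difference of 1.37 (limma adjusted p = 0.0128), with 3 of 3 knockout libraries above both controls in late embryos and overlapping groups in early embryos. Tcstv3 went from -0.83 to 1.22, a difference of 2.05 (limma adjusted p = 0.00235), with 3 of 3 knockout libraries below all controls early and 3 of 3 above both controls late. The call of Tcstv3 was kept in all 19 other settings run, with differences from 1.75 to 2.20, and that of Tcstv1 in 17 of 19.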

How the results depend on the processing

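Of the 1172 values of single genes recomputed under other settings, 1080 kept their direction and their side of the threshold. For counts of calls and for sums the following moved. Members called lower in oocytes (1) were 0 with a replicate block and 0 to 1 with a library left out. Members called lower in early 2-cell embryos (2) were 1 with a pseudocount of 0.1, 0 with no filter, 0 with a mean of at least 5 FPKM (fewer members tested), 5 in 1 fit of all 26 libraries and 0 to 2 with a library left out. Members called lower in late 2-cell embryos (2) were 0 with no filter and 0 to 3 with a library left out; those called higher (3) were 2 with no filter (Tdpoz3 lost, adjusted p = 0.118), 2 with the replicate block and 2 to 3 with a library left out. Members rising from the late 1-cell to the early 2-cell stage were 2 in either genotype with a mean of at least 5 FPKM, against 6 in control and 5 in knockout. The 1 fit of all libraries called 1 member for a lower effect in early 2-cell than in late 1-cell embryos, 1 falling from early to late 2-cell in control, and 4 for a higher effect in late than in early 2-cell embryos (2), where no filter gave 1 and leaving out a library 1 to 3. TPM scaling and median centring each called 1 member falling from early to late 2-cell in control, and leaving out a library gave 0 to 1. The Tcstv sum without Tcstv1 differed by -0.54 in oocytes and -0.68 in MII eggs, and the oocyte sum by -0.84 to -0.58 with a library left out. Unless stated above, the cause was not tested.

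Values that turned in sign were all uncalled. Median centring gave 0.077 and 0.017 for Tcstv1 from MII to late 1-cell in control and knockout, and -0.00374 for Tcstv3 from early to late 2-cell in control. TPM scaling gave 0.013 for the difference of the Tcstv1 effect between MII and late 1-cell and 0.077 for that of Tdpoz4 between the 2-cell stages, where a pseudocount of 0.1 gave 0.31. With a library left out, Tcstv3 ranged from -0.44 to 0.037 in late 1-cell embryos, and Tcstv1 from -0.27 to 0.0012 between MII and late 1-cell in knockout. The difference of the Tcstv1 effect ranged from -0.18 to 0.092 between MII and late 1-cell and from -0.29 to 0.12 between late 1-cell and early 2-cell. Tdpoz3 ranged from -0.89 to 0.010 from early to late 2-cell in control, and the difference of effects between the 2-cell stages from -0.089 to 0.56 for Tdpoz2 and from -0.75 to 0.044 for Tdpoz4.

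TPM scaling raised the median difference of all genes by 0.10 in early and 0.13 in late 2-cell embryos, and turned 501 higher and 692 lower calls into 747 and 559, and 2417 and 2476 into 3014 and 1908. Median centring gave 272 higher and 672 lower calls in oocytes (155 and 809) and 716 and 788 in MII eggs (474 and 890), and TPM scaling 976 and 862 in late 1-cell embryos (690 and 967). Median centring also moved the share of higher calls among stage changes, from 35.0% to 65.7% (control) and 30.1% to 61.6% (knockout) for MII to late 1-cell, 35.9% to 53.4% and 35.2% to 58.3% for late 1-cell to early 2-cell, and 56.3% to 43.3% and 59.6% to 39.3% for early to late 2-cell.

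Replicate numbers are shared between groups, and the main fits used no pairing by number. Deviations of same-numbered libraries correlated by only -0.0925 to 0.167. With groups of 2 or 3 libraries these values cannot show whether same-numbered libraries were collected together. With the replicate block 0 members were called in oocytes, and early 2-cell Tdpoz2 had an adjusted p of 0.0531 and Tdpoz4 of 0.0308. The block could not be fitted for changes between stages, since numbers are nested in a stage. Where a control group of 2 lost a library, the other was assumed to vary like the knockout group.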
